A study of Mus musculus with 12 samples.

Results

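The 8 genes described here encode the mouse DNA topoisomerases (Top1, Top1mt, Top2a, Top2b, Top3a and Top3b) and the tyrosyl-DNA phosphodiesterases (Tdp1 and Tdp2). They were chosen by name as the enzyme family of the target of doxorubicin (DOX) and its relatives, and all 8 were found among the 43698 rows of the gene count table of all libraries. Mki67, the gene of the proliferation antigen Ki-67, was set beside them. The 12 libraries were made from tumours of MC38, a colon carcinoma line of the mouse, which was injected under the left flank skin of C57BL/6J mice aged 8 weeks. They form 6 groups of 2. R+D mice received the antibody-catalyst conjugate Ru-PD-L1 and, 6 hours later, 14 µg of DPD beside the tumour, and R+X mice received Ru-PD-L1 and, 6 hours later, 14 µg of DOX beside the tumour. RP mice received 20 µg of Ru-PD-L1 alone (0.80 mg/kg), DPD mice 14 µg of DPD, DOX mice 14 µg of DOX (0.56 mg/kg for each drug) and Ctrl mice PBS, all into the peritoneal cavity. Injections were given every 3 days from day 9, and every tumour was taken on day 20. DPD was read as the DOX prodrug named in the title of the series, and the conjugate's dose in the combined groups was not stated. Every group, Ctrl included, carried the tumour and was injected, and the drug's route changed together with the combination. Whether a group's 2 libraries stem from different mice is not given in the labels, so the p-values reflect the spread of these libraries, which may be technical.

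Topoisomerases relieve the twisting that builds up in DNA ahead of polymerases, by cutting the backbone, passing DNA through or letting it turn, and sealing the cut again. Type I enzymes cut a single strand and type II enzymes cut both strands, and during the reaction a tyrosine of the enzyme is bound to the DNA end. DOX is known to trap type II topoisomerases in that bound state, and tyrosyl-DNA phosphodiesterases remove trapped enzyme from DNA ends. Top2a is made mainly in dividing cells, with a peak in G2 and mitosis, whereas Top2b is also made in cells that do not divide.

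Promoters of Top2a, Mki67 and Top2b are shown because the first pair moved together across the libraries and the last, the other type II enzyme, did not follow them as closely. The letters run 5′ to 3′ on the gene's own strand, from 250 bases before to 50 bases after the start site, taken from RefSeq on GRCm38.p6. Capitals mark the CCAAT box (CCAAT, or ATTGG on the other strand) and the cell cycle genes homology region (TTTGAA, or TTCAAA on the other strand), an element described in promoters of genes active in G2 and mitosis.
Top2a, chr11:99024140-99024439, minus strand: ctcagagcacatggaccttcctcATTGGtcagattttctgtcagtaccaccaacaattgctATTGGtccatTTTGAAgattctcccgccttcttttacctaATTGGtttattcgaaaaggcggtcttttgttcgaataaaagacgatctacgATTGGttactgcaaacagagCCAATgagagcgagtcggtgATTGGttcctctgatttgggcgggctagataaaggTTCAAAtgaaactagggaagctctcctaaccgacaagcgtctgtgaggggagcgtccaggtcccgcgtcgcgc
Mki67, chr7:135716330-135716629, minus strand: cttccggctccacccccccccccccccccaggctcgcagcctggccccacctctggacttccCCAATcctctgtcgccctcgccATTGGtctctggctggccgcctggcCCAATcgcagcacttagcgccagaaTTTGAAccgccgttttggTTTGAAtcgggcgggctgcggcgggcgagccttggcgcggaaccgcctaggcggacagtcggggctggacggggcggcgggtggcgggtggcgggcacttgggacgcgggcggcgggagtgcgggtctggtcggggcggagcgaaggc
Top2b, chr14:16364956-16365255, plus strand: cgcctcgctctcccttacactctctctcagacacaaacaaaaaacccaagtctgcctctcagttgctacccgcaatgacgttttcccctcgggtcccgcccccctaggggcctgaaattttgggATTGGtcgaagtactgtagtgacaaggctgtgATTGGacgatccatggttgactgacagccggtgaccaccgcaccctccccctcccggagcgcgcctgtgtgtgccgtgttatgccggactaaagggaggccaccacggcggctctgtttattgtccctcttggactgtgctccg
The Top2a promoter held 6 CCAAT boxes and 2 matches to the homology region, and no matches shared a base. The Mki67 promoter held 3 CCAAT boxes and 2 matches to the homology region, and the Top2b promoter held 2 CCAAT boxes and 0 matches to the homology region. Of all 32851 promoters of that length, 37.4% held a CCAAT box, 17.9% the homology region and 6.95% both. Of the 5 members with a promoter in the RefSeq table, 3 had a CCAAT box (Top2a, Top2b and Top3b), 2 had the homology region (Top2a and Tdp1) and 1 had both (Top2a). In a list of 26 genes of G2 and mitosis, 22 had an entry, with 23 promoters, of which 18 held a CCAAT box, 17 the homology region and 15 both. A match is a string of letters and says nothing of binding. The 3 promoters were picked after the levels were seen, and a link between matches and levels was not tested.

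Levels are given as CPM, which are counts scaled to a common library size with edgeR's TMM factors, and the library totals lay between 46547114 and 56462259 counts. Every member was well counted, from 768 counts of Top1mt in R+X replicate 1 upward, so all 8 passed the filter on low counts. Several measures differed between the libraries, some of them along the groups. A length score was taken as the mean log2 CPM of 1486 genes with principal transcripts of at least 6000 bases minus that of 1802 genes with transcripts under 1500 bases, centred on the 12 libraries. The score ran from 0.06 to 0.48 in the RP, R+X and R+D libraries and from -0.95 to 0.47 in the DPD, DOX and Ctrl libraries. Its lowest values were -0.95 in Ctrl replicate 2 and -0.83 in DOX replicate 1, while DOX replicate 2 stood at 0.47. Skeletal muscle markers (14 of 14 detected) summed to 361 CPM in R+D replicate 2, 271 in RP replicate 1 and 105 in RP replicate 2, against 12.3 to 30.6 CPM in the other 9 libraries. T cell markers (12 of 13 detected) summed to 35.3 and 58.8 CPM in R+D, 28.5 and 15.6 in R+X, 60.2 and 52.1 in RP, 31.2 and 36.5 in DPD, 19.8 and 18.3 in DOX, and 31.6 and 25.2 in Ctrl tumours. Red blood cell markers (5 of 5 detected) summed to 21.7 and 32.6 CPM in R+D, 37.2 and 55.4 in R+X, 51.0 and 87.7 in RP, 124 and 25.3 in DPD, 368 and 347 in DOX, and 223.2 and 260.3 in Ctrl tumours. Endothelial markers (7 of 7 detected) summed to 152 and 110 CPM in RP, against 65.0 to 102 CPM in the other 10 libraries. Markers of intestinal epithelium, the labelled origin of the line, were low: 12 genes summed to 11.1 to 20.1 CPM, of which Cdh1 alone gave 9.90 to 18.1, while Krt20 stood at 0 to 0.49 CPM and Cdx2 had 0 counts in every library.

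Of the family, Top2a was by far the most abundant. Per kilobase of principal transcript, the median over the 12 libraries was 145.0 CPM for Top2a, 23.3 for Top1, 18.1 for Tdp2, 13.6 for Tdp1, 13.4 for Top3b, 12.8 for Top2b, 10.2 for Top1mt and 8.53 for Top3a. The Top2a range of 97.7 to 204.8 CPM per kilobase lay above that of Top1, the next in order, at 15.8 to 30.2. The Tdp2 range of 16.6 to 19.2 lay inside that of Top1 and above that of Tdp1, 11.4 to 15.3. From Tdp1 down the ranges of neighbours overlapped, so their order is not fixed beyond the spread between libraries. Counts were per gene, and all annotated exons together span 10426 bases for Top1, 8400 for Top3b and 7988 for Tdp1. Their principal transcripts have 3856, 3073 and 2036 bases. The order below Top2a therefore holds for principal transcripts only and depends on the length used. Mki67 had a median of 36.9 CPM per kilobase, below Top2a and above Top1. Counting reads without regard to length, Top2a alone made up 61.1% to 72.7% of the CPM of the 8 members in each library. Among all genes tested, 99.2% had a lower mean CPM than Top2a, and 56.8% a lower one than Top1mt, the least counted member.

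**Figure D1:**
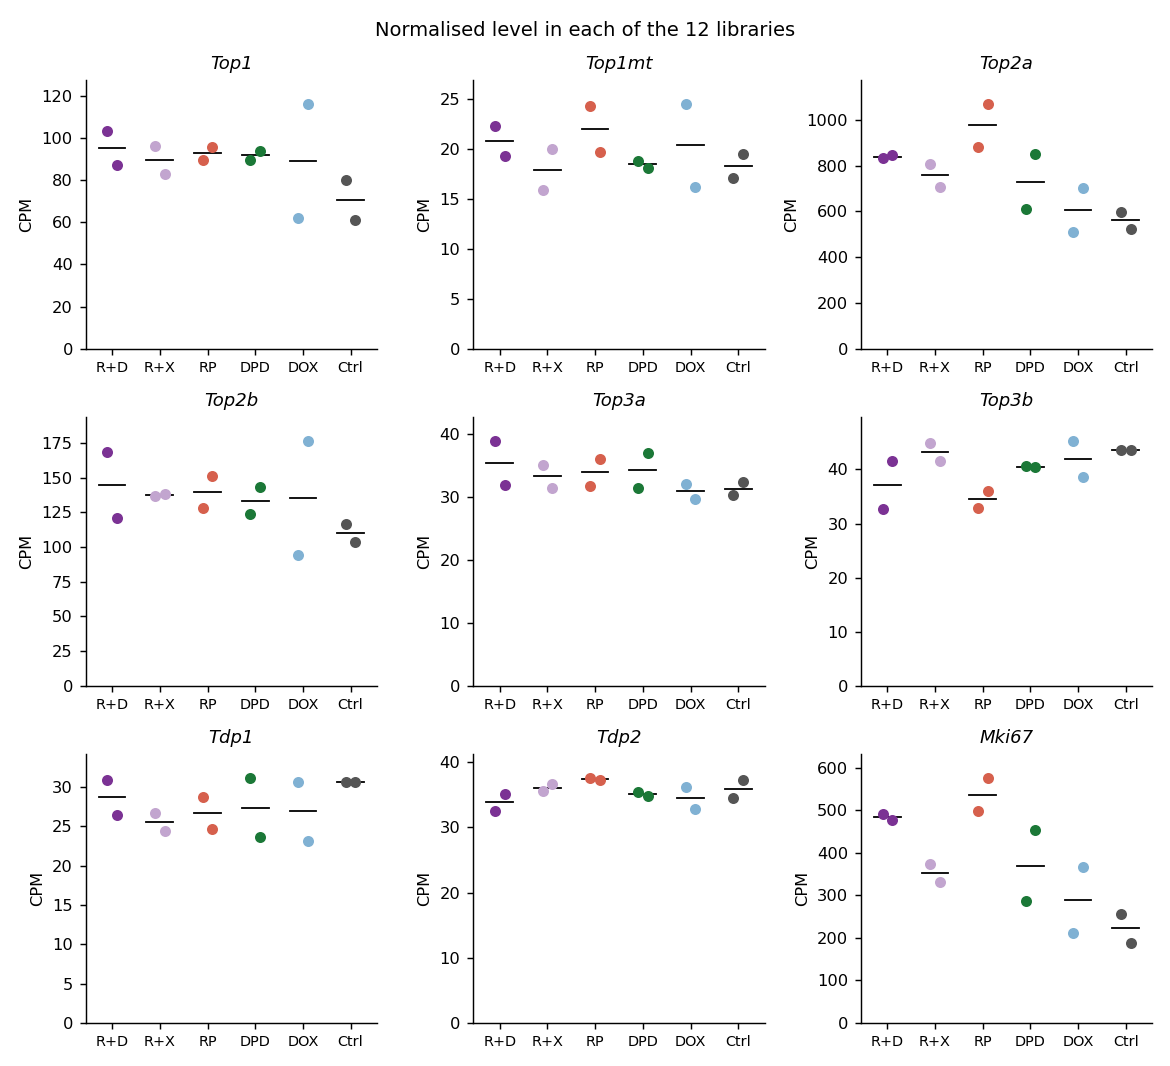
CPM of the 8 members and Mki67 (vertical axes, from 0) in each of the 12 libraries, by group along the horizontal axis; points are libraries and bars are means of 2. Top2a and Mki67 stand highest in RP and lowest in Ctrl tumours by group mean, and the DOX libraries lie far apart for Top1, Top2a, Top2b and Mki67.

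Top2a encodes topoisomerase II alpha, which separates the sister chromatids before and during mitosis. It is annotated as protein coding on GRCm38 chromosome 11 from 98992943 to 99024189, minus strand. Its level was 833 and 847 CPM in R+D, 807 and 708 CPM in R+X, 883 and 1069 CPM in RP, 611 and 849 CPM in DPD, 510 and 703 CPM in DOX, and 596 and 524 CPM in Ctrl tumours. Each library of R+D, R+X, RP and DPD stood above both Ctrl libraries, and the DOX libraries lay on either side of them. The RP mean of 976 ± 132 CPM was 1.74-fold that of Ctrl tumours, 560 ± 51.0 CPM (SD, n = 2 each), a log2 fold change of 0.80 ± 0.21 (SE; 95% interval 0.34 to 1.26). That difference did not pass edgeR's quasi-likelihood test over the 19525 genes tested (adjusted p = 0.131). The R+D mean was 840 ± 9.73 CPM and its log2 fold change against Ctrl was 0.58 ± 0.21 (edgeR adjusted p = 0.314). The estimates against Ctrl were 0.43 ± 0.21 for R+X, 0.38 ± 0.21 for DPD and 0.11 ± 0.20 for DOX, with edgeR adjusted p from 0.575 to 1. Without DPD replicate 2 the DPD estimate was 0.12 and without DPD replicate 1 it was 0.60, and the DOX estimate was -0.13 without DOX replicate 2 and 0.33 without DOX replicate 1.

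Whether the conjugate went with a change in the family over all drug settings was asked by setting the 6 RP, R+X and R+D libraries against the 6 DPD, DOX and Ctrl libraries. In R+X and R+D the route of the drug changed as well. Top2a averaged 858 CPM over the conjugate groups and 632 CPM over the others, a log2 fold change of 0.44 ± 0.12 (95% interval 0.18 to 0.70; edgeR adjusted p = 0.160). The sides overlapped, because DPD replicate 2 at 849 CPM stood above 4 of the 6 conjugate libraries. All 8 members overlapped in this comparison, where 0.236% of all genes had every conjugate library above every other library and 0.0768% had every one below. DESeq2 called this difference (adjusted p = 0.0266), with 5.46% of the genes it tested, and that of RP against Ctrl (adjusted p = 0.0142), with 6.78%. Without DOX replicate 2, edgeR called the average for Top2a (adjusted p = 0.0333) and for 15.6% of the genes tested, 3233 in all, against 0 to 37 genes without any other library. With the length score as a covariate the estimates were 0.45 ± 0.12 for RP against Ctrl and 0.26 ± 0.07 for the average, and with the mean of the other G2 and mitosis genes as a covariate they were 0.34 ± 0.24 and 0.16 ± 0.15. With the skeletal muscle score as a covariate they were 0.85 ± 0.30 and 0.48 ± 0.19, and with the T cell score 0.64 ± 0.33 and 0.36 ± 0.18. All 5 red blood cell markers had negative estimates in the average, from -2.11 to -1.55 (edgeR adjusted p from 0.141 to 0.145), and in RP against Ctrl, from -1.86 to -1.13. In RP against Ctrl, 21.4% of all genes had an unadjusted p under 0.05 in either direction. There, 6 of 7 endothelial, 2 of 4 neutrophil and 4 of 8 fibroblast markers were higher at that p. Pecam1 stood at 0.85 ± 0.18 and Vwf at 1.16 ± 0.32. Of 4 B cell markers only Jchain was higher at that p, at 3.16 ± 0.98. The fibroblast markers Col3a1, Dcn and Pdgfrb had negative estimates (-0.42, -0.35 and -0.15). Estimates of the T cell markers tested ran from 0.55 (Lck) to 2.28 (Icos), and those of macrophage markers from -0.36 (Cd68) to 0.99 (Mrc1). Higher at that unadjusted p were Cd3d, Cd3g, Cd2, Cd5, Cd4, Zap70 and Icos of T cells and Adgre1 and Mrc1 of macrophages. Estimates of skin markers ran from -0.11 (Krt14) to 3.52 (Krt1), with Sbsn alone under that p (0.83 ± 0.25). The part of these markers in the Top2a estimates was not tested. In whole tumours, a change in the share of dividing cells and a change in RNA per cell cannot be told apart.

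Over the 14 comparisons made, edgeR called 0 of the 8 members. The share of all genes called was 0.0154% in RP against Ctrl and in the average over drug settings, and 0% in the other 12. At an unadjusted p under 0.05, Top2a was the only member, in RP against Ctrl, R+D against Ctrl and the average, where 21.4%, 15.4% and 20.3% of all genes stood under that p. In the comparisons with 0 such members, that share of all genes was 6.00% for R+X, 4.02% for DPD and 2.08% for DOX against Ctrl, 4.29% for DPD against DOX, 5.27% for R+D against R+X, 8.68% for R+X against RP, 2.73% for R+D against RP, 2.80% for R+X against DOX and 2.30% for R+D against DPD. It was 3.71% for the interaction of the conjugate with DOX and 4.46% for that with DPD. Limma-voom called 0 members in any comparison, and DESeq2 called Top2a in the 2 named.

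In R+D, R+X and DPD against Ctrl alike, 3 members had both treated libraries above both Ctrl libraries (Top1, Top2a and Top2b) and 1 had both below (Top3b in R+D and DPD, Tdp1 in R+X). The shares of all genes above and below were 30.8% and 27.4% in R+D, 28.5% and 27.5% in R+X, and 20.4% and 17.6% in DPD. In RP against Ctrl, 5 members lay above (Top1, Top1mt, Top2a, Top2b and Tdp2) and 2 below (Top3b and Tdp1), beside 32.3% and 27.1% of all genes. In DOX against Ctrl all 8 members overlapped, beside 8.29% of all genes above and 9.43% below. The median log2 fold change of the 8 members was 0.19 in RP against Ctrl, beside 0.06 over all genes tested, and 0.18 in R+D against Ctrl, beside 0.04. The median of the members was lower in R+X, DPD and DOX against Ctrl. Their estimates ran from -0.26 (Tdp1) to 0.43 (Top2a) in R+X, from -0.16 (Tdp1) to 0.38 (Top1) in DPD and from -0.19 (Tdp1) to 0.34 (Top1) in DOX.

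**Figure D2:**
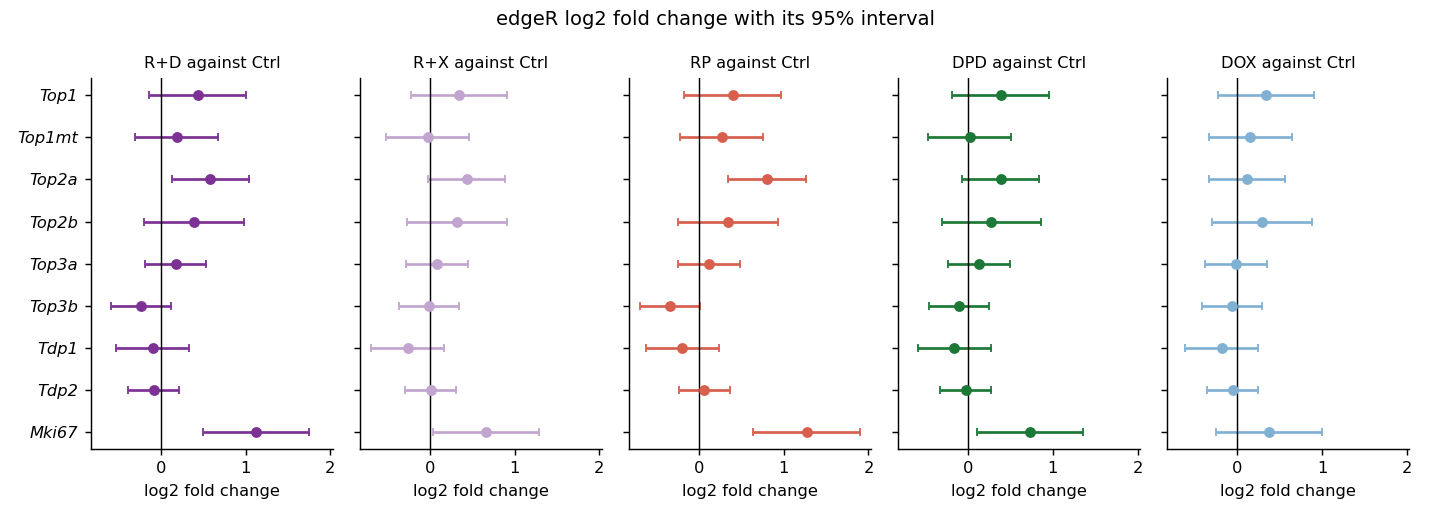
Log2 fold change against Ctrl (horizontal axes) of the 8 members and Mki67, with 95% intervals from edgeR, in a panel for each treatment. The Top2a interval lies above 0 in the R+D and RP panels, and all intervals of the other 7 members include 0.

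Mki67 stood at 493 and 477 CPM in R+D, 375 and 332 in R+X, 498 and 576 in RP, 286 and 454 in DPD, 211 and 367 in DOX, and 257 and 188 CPM in Ctrl tumours. Every library of R+D, R+X, RP and DPD was above both Ctrl libraries. Its log2 fold change was 1.27 ± 0.29 in RP and 1.12 ± 0.28 in R+D against Ctrl (edgeR adjusted p = 0.127 and 0.314), and DESeq2 called Mki67 in RP (adjusted p = 0.00194) and in R+D (adjusted p = 0.0208), where it called 224 of the 17184 genes it tested. DESeq2 also called Mki67 in the average (0.64, adjusted p = 0.0101), and so did edgeR without DOX replicate 2 (0.80, adjusted p = 0.0333). With RP and Ctrl alone, edgeR called Mki67 (adjusted p = 0.0228) beside 2.77% of the genes tested, and with the length score as a covariate edgeR called it lower in R+X against RP (-0.57, adjusted p = 0.046) beside 0.292%. Across the 12 libraries the log2 CPM of Top2a followed that of Mki67 with Pearson's r = 0.97 and Spearman's rho = 0.96 (permutation p = 1e-05 for each, the smallest that 100000 permutations can give; 8e-05 adjusted over the 8 members). Here and below, permutation tests shuffled libraries without regard to group, so libraries of the same group were treated as independent. The relation held without the 2 libraries farthest from the Mki67 median, Ctrl replicate 2 and DOX replicate 1 (r = 0.96), on deviations from group means (r = 0.96), within the 6 conjugate libraries (r = 0.90) and within the 6 others (r = 0.98).

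The other members followed Mki67 less closely or ran against it. Top1 gave r = 0.77 and rho = 0.63 (permutation p = 0.00308 and 0.031, adjusted 0.0123 and 0.062), and Top2b r = 0.72 and rho = 0.64 (permutation p = 0.00954 and 0.0302, adjusted 0.0193 and 0.062). Both relations rested on Ctrl replicate 2 and DOX replicate 1, since without them r was 0.36 for Top1 and 0.40 for Top2b. Top3b ran against Mki67, with r = -0.71 and rho = -0.77 (permutation p = 0.00967 and 0.00506, adjusted 0.0193 and 0.0202), and with r = -0.65 without those libraries. With CPM scaled by total counts in place of TMM its r was -0.27 (permutation p = 0.402, adjusted 0.459), so the call was lost. Top3a (r = 0.50), Tdp1 (r = -0.51), Tdp2 (r = -0.16) and Top1mt (r = 0.03) did not pass the permutation test (adjusted p from 0.129 to 0.933), with rho of 0.41, -0.34, 0.06 and 0.14. Scaled by total counts, Top3a stood at r = 0.80 (permutation p = 0.00236, adjusted 0.00472) and Tdp2 at r = 0.71 (permutation p = 0.00954, adjusted 0.0153). On deviations from group means, with TMM scaling, r was 0.83 for Top1, 0.80 for Top2b, 0.19 for Top3a and -0.30 for Top3b. It was -0.76 for Top1mt, -0.78 for Tdp1 and -0.76 for Tdp2, all given as a description without a test.

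The number of Top2a counts per Mki67 count needs no scaling between libraries. It was 1.69 and 1.78 in R+D, 2.15 and 2.13 in R+X, 1.77 and 1.86 in RP, 2.14 and 1.87 in DPD, 2.42 and 1.92 in DOX, and 2.32 and 2.79 in Ctrl tumours. Every treated library except DOX replicate 1 had a lower ratio than both Ctrl libraries. On the log2 scale the ratio averaged 0.92 ± 0.15 in the conjugate libraries and 1.15 ± 0.22 in the others (SD, n = 6 each), a difference of -0.23 that did not pass an exact two-sided permutation test (p = 0.0541). Groups of 2 cannot give an exact permutation p below 0.333, so they were not tested. When Top2a was set against the mean of the G2 and mitosis list without Mki67, the difference had the opposite sign, 0.33, and passed the same exact test (p = 0.0195).

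**Figure D3:**
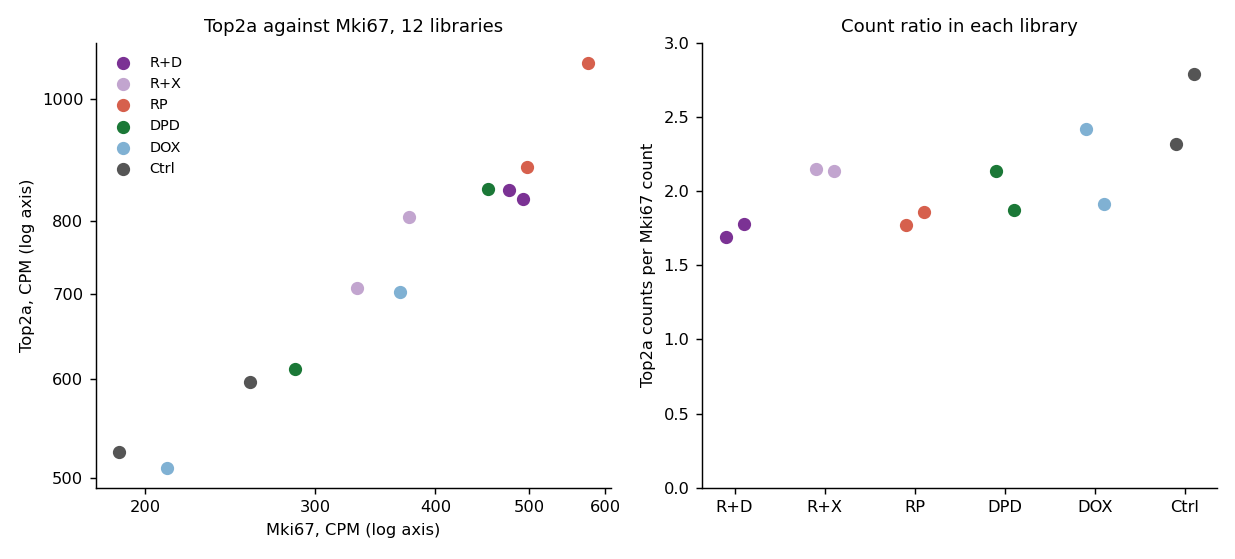
Left, Top2a CPM against Mki67 CPM in the 12 libraries, both on log axes; right, Top2a counts per Mki67 count in each library, by group, from 0. The libraries lie near a line at left, and at right Ctrl replicate 2 has the highest ratio, 2.79, and R+D replicate 1 the lowest, 1.69.

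That sign depended on which genes Top2a was compared with, and within the list the difference moved with transcript length. Over Top2a and the 26 listed genes, Spearman's rho between principal transcript length and the difference in mean log2 CPM (conjugate libraries minus the others) was 0.80, a description across genes that share the same libraries. The 13 genes under 3000 bases had a median difference of -0.01, the 10 genes of 3000 to under 5000 bases 0.19, and the 4 genes of 5000 bases and over 0.49, with the classes chosen after the values were seen. Those 4 genes were Mki67 at 0.68 (10061 bases), Cenpe, a kinesin of the kinetochore, at 0.52 (7910 bases), Top2a at 0.45 (5221 bases) and Cenpf, another kinetochore gene, at 0.45 (11130 bases). At the short end, Ube2c and Cdc20, which act in the anaphase-promoting system, stood at -0.14 and -0.17.

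**Figure D4:**
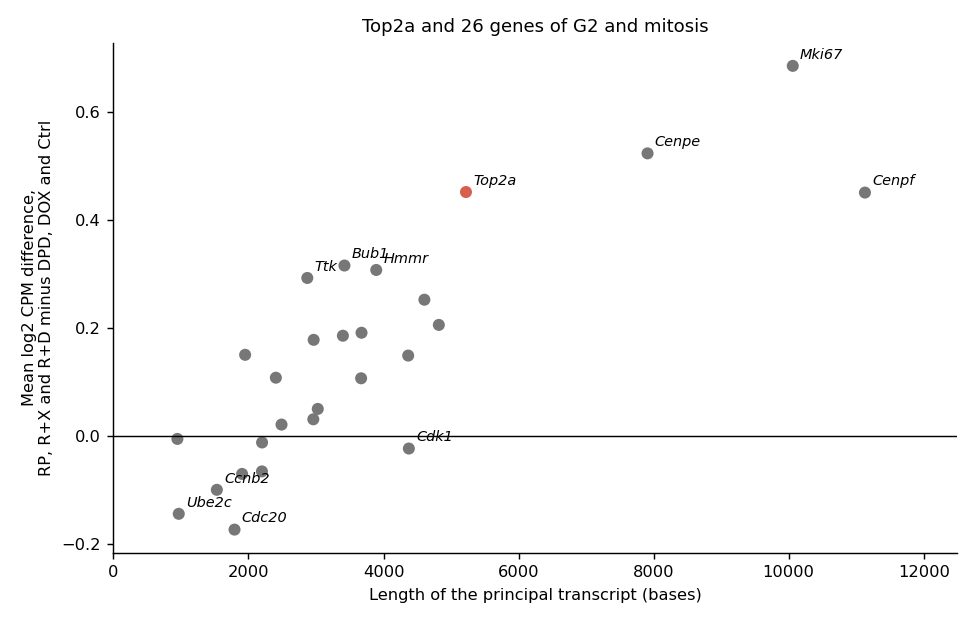
Difference in mean log2 CPM, the 6 RP, R+X and R+D libraries minus the 6 DPD, DOX and Ctrl libraries (vertical axis), against principal transcript length (horizontal axis) for Top2a and the 26 genes of the G2 and mitosis list. Top2a lies at 0.45 among the longer genes, and Ube2c, Cdc20 and Ccnb2 lie below 0.

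Top1 encodes the nuclear type IB topoisomerase, the target of camptothecins. It stood at 104 and 87.2 CPM in R+D, 96.2 and 82.9 in R+X, 89.7 and 96.0 in RP, 89.9 and 94.0 in DPD, 62.3 and 116 in DOX, and 80.1 and 61.0 CPM in Ctrl tumours. All libraries of the 4 groups other than DOX were above both Ctrl libraries, and the DOX libraries held both the highest value and nearly the lowest. The estimates against Ctrl ran from 0.34 ± 0.26 in DOX to 0.43 ± 0.26 in R+D, and none passed (edgeR adjusted p from 0.369 to 1). Without DOX replicate 2 the DOX estimate was -0.18. Top2b encodes topoisomerase II beta, which acts in transcription in dividing and resting cells alike. It had 168 and 121 CPM in R+D, 137 and 138 in R+X, 128 and 151 in RP, 123 and 143 in DPD, 94.0 and 176 in DOX, and 117 and 104 CPM in Ctrl tumours. As with Top1, all libraries of the 4 groups other than DOX stood above both Ctrl libraries, with estimates of 0.27 to 0.39 against Ctrl and edgeR adjusted p from 0.438 to 1. Per kilobase of principal transcript, Top2a exceeded Top2b by 9.80-fold and 13.9-fold in R+D, 11.7-fold and 10.2-fold in R+X, 13.7-fold and 14.0-fold in RP, 9.80-fold and 11.7-fold in DPD, 10.7-fold and 7.90-fold in DOX, and 10.1-fold and 10.01-fold in Ctrl tumours.

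Both genes moved with the length score of the library. Top1 followed it with r = 0.91 and rho = 0.83 (permutation p = 0.00014 and 0.0015), and Top2b with r = 0.90 and rho = 0.92 (permutation p = 4e-05 and 6e-05), and all 4 passed when adjusted over 10 relations (0.0007, 0.0075, 0.0004 and 0.0006). For Top1 and Top2b, r was 0.65 and 0.79 within the conjugate libraries, and 0.94 and 0.93 within the others. Without Ctrl replicate 2 and DOX replicate 1, r was 0.68 for Top1 and 0.81 for Top2b. Top2a and Mki67 also followed the score, with r = 0.85 and 0.87 (permutation p = 0.00027 and 0.00031, adjusted 0.000775 for each) and rho = 0.69 and 0.71 (adjusted permutation p = 0.0313 for each), and r = 0.68 for both without those libraries. Within the conjugate libraries r was 0.51 for Top2a and 0.32 for Mki67, and within the others 0.93 and 0.96. The log2 ratio of Top2a to Mki67 ran against the score, with r = -0.82 and rho = -0.61 (permutation p = 0.00123 and 0.0391, adjusted 0.00246 and 0.0651), and with r = 0.04 within the conjugate libraries and -0.95 within the others. With the score as a covariate, the Top2b estimate against Ctrl had the opposite sign in all 5 treatments (-0.15 in RP, R+X at -0.15, -0.07 in R+D, -0.10 in DPD and -0.01 in DOX). The Top1 estimate became -0.06 in RP and -0.09 in R+X. The score was built from other genes and was chosen after the data were seen. The T cell score, the mean log2 CPM deviation of the T cell markers and likewise set beside these genes after the data were seen, was followed by Top2a with r = 0.66 and rho = 0.73 (permutation p = 0.0199 and 0.00866, adjusted over 3 relations 0.0318 and 0.0158). For Mki67, r was 0.66 and rho 0.72 (permutation p = 0.0212 and 0.0105, adjusted 0.0318 and 0.0158), and for the log2 ratio of Top2a to Mki67 r was -0.59 and rho -0.66 (permutation p = 0.0465 and 0.024, the same when adjusted). Without RP replicate 1 and R+D replicate 2, r was 0.62, 0.57 and -0.43 for Top2a, Mki67 and the ratio, and on deviations from group means it was 0.25, 0.22 and -0.14.

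**Figure D5:**
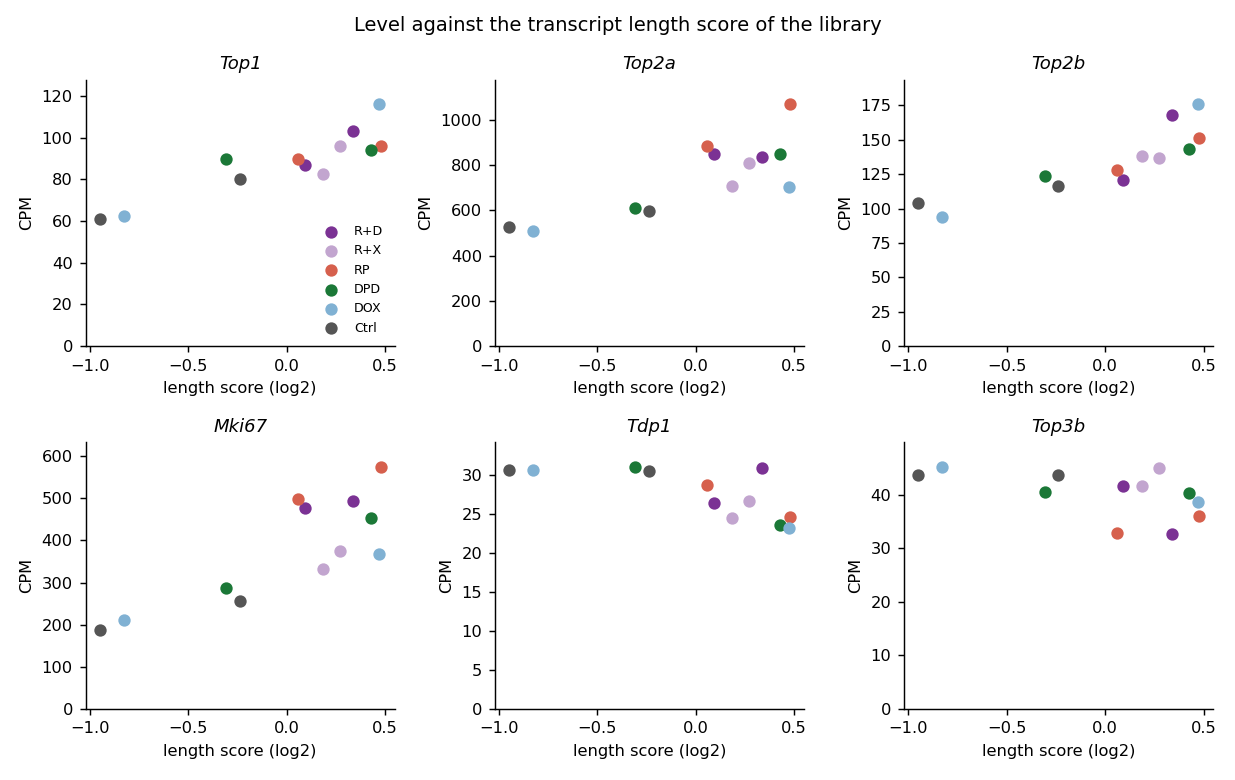
CPM (vertical axes, from 0) of Top1, Top2a, Top2b, Mki67, Tdp1 and Top3b against the length score of each library (horizontal axis, log2 units), coloured by group. Top1, Top2a, Top2b and Mki67 rise along the score and Tdp1 falls along it (r = -0.72), while Top3b shows a weaker relation (r = -0.52).

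The type IA enzymes act on single-stranded DNA, Top3a with the Bloom helicase and in mitochondria, and Top3b with Tdrd3 also on RNA. Top3a ranged from 29.7 CPM in DOX replicate 2 to 38.8 CPM in R+D replicate 1, and its estimates against Ctrl lay between -0.02 and 0.17 with intervals that include 0. Top3b was 32.7 and 41.5 CPM in R+D, 44.9 and 41.6 in R+X, 32.9 and 36.0 in RP, 40.6 and 40.4 in DPD, 45.2 and 38.7 in DOX, and 43.6 and 43.7 CPM in Ctrl tumours. Both RP libraries lay below both Ctrl libraries, and so did those of R+D and DPD. The RP estimate was -0.34 ± 0.16 (95% interval -0.70 to 0.01; edgeR adjusted p = 0.246), and the R+X estimate -0.01 ± 0.16.

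Top1mt is the mitochondrial type IB enzyme, and Tdp1 and Tdp2 act mainly on ends left by type I and type II enzymes. Top1mt lay between 15.9 and 24.5 CPM, and its highest estimate against Ctrl was 0.27 ± 0.22 in RP. Tdp2 was the steadiest of the 8, from 32.5 CPM in R+D replicate 1 to 37.5 CPM in RP replicate 1, a highest value 1.15 times the lowest. Its estimates against Ctrl ran from -0.09 ± 0.14 in R+D to 0.06 ± 0.14 in RP, and the 95% interval in DOX was -0.36 to 0.25. Tdp1 lay between 23.2 and 31.1 CPM and ran against the length score (r = -0.72, rho = -0.69, permutation p = 0.00665 and 0.0156, adjusted 0.0111 and 0.0313). For Tdp1, r was -0.17 within the conjugate libraries and -0.88 within the DPD, DOX and Ctrl libraries. Its estimate was negative against Ctrl in all 5 treatments, from -0.26 ± 0.19 in R+X to -0.09 ± 0.19 in R+D (edgeR adjusted p from 0.543 to 1). With the length score as a covariate the RP estimate of Tdp1 was 0.04.

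DPD and DOX given alone were compared at the same mass of 14 µg and by the same route, and their doses in moles are not given here. The log2 fold change of Top2a, DPD against DOX, was 0.27 ± 0.20 (95% interval -0.19 to 0.72; edgeR adjusted p = 0.979), and the libraries of all 8 members overlapped, beside 13.4% of all genes higher and 10.4% lower without overlap. Top2b differed by -0.02 (interval -0.61 to 0.57) and Top1 by 0.04 (interval -0.53 to 0.61). The 3 values moved with which library was used: without DPD replicate 2 the Top2a difference was 0.0046 and without DOX replicate 1 it was 0.056. Without DOX replicate 2 the differences were 0.52 for Top2a, 0.56 for Top1 and 0.50 for Top2b, whereas without DOX replicate 1 they were -0.34 for Top1 and -0.40 for Top2b. After the conjugate, at the same 14 µg beside the tumour, the log2 fold change of Top2a in R+D against R+X was 0.15 ± 0.20 (interval -0.30 to 0.60; edgeR adjusted p = 1). In that comparison, Top2a was the member with both R+D libraries above both R+X libraries, where 22.5% of all genes did so, and Top3b and Tdp2 had both below, where 23.0% did.

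Each combination was also set against its parts. For Top2a the difference was -0.37 ± 0.21 for R+X against RP (interval -0.82 to 0.09; edgeR adjusted p = 0.725) and -0.22 ± 0.20 for R+D against RP (adjusted p = 1 in edgeR), with both combined libraries below both RP libraries in each. In R+X against RP, 2 members lay below without overlap (Top2a and Tdp2; 23.7% of all genes) and 1 above (Top3b; 22.7%), and in R+D against RP the same 2 lay below (13.6%) and 0 above (14.2%). The log2 fold change was 0.32 ± 0.20 in R+X against DOX and 0.20 ± 0.20 in R+D against DPD. The conjugate's effect with DOX minus that without was -0.48 ± 0.29 for Top2a and -0.98 ± 0.40 for Mki67, and with DPD it was -0.60 ± 0.29 and -0.88 ± 0.40. None of these 4 interactions passed edgeR (adjusted p from 0.840 to 0.998). In them, and in R+X against DOX and R+D against DPD, the conjugate and the route of the drug changed together and cannot be told apart.

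Other genes of the same pathways were taken from 6 lists and described in RP against Ctrl, where edgeR and limma-voom called 0 of their members and 21.4% of all genes had an unadjusted p below 0.05. DESeq2, which called 1124 genes there, called Ercc6l, Kif4, Mki67, Cenpe, Cenpf, Pole and Pola1 higher and Tefm lower. Of 14 condensin and cohesin genes, which fold and hold chromosomes, 13 had a positive estimate (median 0.34, beside 0.06 over all genes) and 5 had an unadjusted p below 0.05. The smallest p values belonged to Kif4, a chromosome-bound kinesin (0.69 ± 0.19), Smc1a of cohesin (0.51 ± 0.16) and Ncapg2 of condensin II (0.95 ± 0.35). Of 6 partners of type IA topoisomerases, 4 were positive (median 0.26) and 1 was under that p, led by the helicases Ercc6l (0.83 ± 0.22) and Blm (0.50 ± 0.26), with the RNA-binding protein gene Fmr1 at 0.38 ± 0.32. Of the 22 genes in the table that act on trapped topoisomerases or the breaks they leave, 13 were positive and 9 negative (median 0.14), with 4 and 2 of them under that p. In that list Rad50, of the complex that trims DNA ends, stood at 0.66 ± 0.23, Xrcc5, which encodes Ku80 of end joining, at -0.50 ± 0.19, and the protease gene Fam111a at 0.45 ± 0.18. Of 26 G2 and mitosis genes 18 were positive (median 0.21; 7 under that p), with Mki67, Cenpe (0.95 ± 0.26) and Cenpf (0.87 ± 0.24) at the smallest p. Of 26 S phase genes 14 were positive (median 0.01; 4 under that p), where Pole (0.94 ± 0.24), Pola1 (0.95 ± 0.27) and Rrm2 (0.45 ± 0.15) had the smallest p. Of 14 genes of mitochondrial DNA maintenance 11 were negative (median -0.25; 4 under that p), among them Tefm, a mitochondrial transcription elongation factor (-0.76 ± 0.20), and the nucleoside kinases Tk2 (-0.54 ± 0.17) and Dguok (-0.70 ± 0.26). The edgeR adjusted p of all the genes named from these lists lay between 0.127 and 0.482. Since the median over all genes was 0.06, a positive estimate was also the more frequent sign among all genes tested. The length score was 0.06 and 0.48 in the RP libraries and -0.24 and -0.95 in the Ctrl libraries. Its part in the counts and medians of these lists was not tested.

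The genes whose log2 CPM was most like that of Top2a over the 12 libraries, among 12403 genes ranked, were Brca2 (r = 0.99), Kntc1 (r = 0.98), Xist, Chd7 and Ttc39b (r = 0.98 for each), and Mki67 came 8 in that order. Brca2 acts in repair by homologous recombination and Kntc1 at the kinetochore, Chd7 is a chromatin remodeller and Xist is the long non-coding RNA of X inactivation. Their principal transcripts are 6961 to 17946 bases long. Most like Top1 were Mbd5 and Sec24b (r = 0.98 and 0.97), and most like Top2b Ascc3 and Gnaq (r = 0.98 for both). Nearest to the remaining members were Pcgf6 and Egf for Top3a (r = 0.84 and 0.82), Adamts8 and Pld5 for Top3b (0.95 and 0.93), Kctd17 and Adam11 for Top1mt (0.89 and 0.87), Fbxl6 and Eef1akmt4 for Tdp1 (0.90 for both) and Rbpms and Cd36 for Tdp2 (0.89 and 0.87). These are descriptions over 12 libraries, each the highest of all values ranked.

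The use of strand in counting is not given in the sources used here, so overlapping genes bear on a few of these counts. Exons of Top2b overlap those of Rarb on the other strand over 1429 bases, and Rarb had at most 29 counts in a library. Exons of Top3b overlap those of Vpreb1 over 94 bases, with at most 17 counts. Whether reads from shared bases were lost from either gene of a pair was not tested.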

How the data were processed

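Total RNA of tumours was extracted with TRIzol and made into libraries with the NEBNext Ultra kit, per the labels' protocols. HISAT2 2.1.0, StringTie 1.3.5, DESeq2 and genome build GRCm38 are named in the submitters' processing notes, with no role given. The authors deposited raw counts per gene, as whole numbers, for all 12 libraries in a table and again library by library, with equal values. Counts of 19525 genes that passed filterByExpr were fitted in edgeR 4.0.16 (R 4.3.3) with TMM scaling and the quasi-likelihood test over all 12 libraries in 6 groups, with 6 residual degrees of freedom and Benjamini-Hochberg adjustment, and an adjusted p under 0.05 passed. The fit was also run on counts simulated from its own estimates of spread. Those counts held no difference between libraries by transcript length or cell type, so that run cannot speak to such differences. Log2 CPM had a prior count of 2. The label RP was read as Ru-PD-L1 alone, R+X as the conjugate plus DOX (the only agent with an X) and R+D as the conjugate plus DPD. The labels number no replicates, so numbers name libraries in order of listing. The members, lists and tests were chosen with earlier results of these data known. All members and Mki67 are named, with up to 3 genes of smallest p per list. Transcript lengths came from GENCODE release M21, and promoters from RefSeq. Alternatives were RLE scaling, no filter, DESeq2 1.42.0, limma 3.58.1 (voom), the compared groups alone, each library left out, covariates for skeletal muscle and for G2 and mitosis, and, after seeing the data, for transcript length and T cells. In groups of 2, leaving out a library assumes that the lone one varies like the other groups.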

Additional observations from a re-analysis of the deposited data

Results flagged for a closer look

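Among the 10 measures taken over the 6 conjugate and the 6 other libraries (20 sets of 6), 1 library stood apart: Top3a in DPD replicate 2, at 36.9 CPM, was the highest of the DPD, DOX and Ctrl libraries by a gap of 0.634 of their range, above Dixon's critical value for 6 samples. Chance gives such a gap in about 1 of 20 sets.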

How the results depend on the processing

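No paired analysis was possible because the labels number no replicates. The count of members called, 0 in every comparison in edgeR, was 1 with DESeq2 in RP against Ctrl and 1 in the average over drug settings, and from 0 to 1 in the average when each library was left out. RLE scaling, no filter, limma-voom, the compared groups alone and the muscle and T cell covariates called 0 members and turned no sign of an estimate larger than its standard error, and a prior count of 0.5 moved no correlation past the threshold. With the G2 and mitosis covariate the sign turned for Top1 (-0.18), Top2b (-0.28) and Tdp1 (0.14) in RP against Ctrl, for Mki67 in R+X against DOX (-0.0078), and in the average for Top1 (-0.19) and Top2b (-0.20). With the transcript length covariate it turned for Top2b in DOX (-0.0097), DPD (-0.095), RP (-0.15), R+X (-0.15) and R+D (-0.073) against Ctrl and in the average (-0.088), for Top1 in RP (-0.058) and R+X (-0.090) against Ctrl and in the average (-0.085), and for Tdp1 in RP against Ctrl (0.039). With each library left out in turn, the estimates ran from -0.18 to 0.72 for Top1, from -0.23 to 0.68 for Top2b and from -0.077 to 0.72 for Mki67 in DOX against Ctrl, from -0.022 to 0.81 for Mki67 in DPD against DOX, from -0.053 to 0.75 for Mki67 in R+X against DOX, and from -0.77 to 0.13 for Top1 in the interaction with DOX. With CPM by total counts, r with Mki67 was 0.80 for Top3a (now past the threshold), -0.27 for Top3b (no longer past it) and 0.71 for Tdp2 (sign turned). The log2 ratio of Top2a to Mki67 differed by -0.28 to -0.17 with each library left out, and its exact permutation p passed without R+X replicate 1 (0.0303), R+X replicate 2 (0.0346), DPD replicate 2 (0.026) or DOX replicate 2 (0.0303). With the G2 and mitosis list as denominator it was 0.33. The causes were not tested. Over all genes, DESeq2 called 1124 in RP against Ctrl and 905 in the average, where edgeR called 3 each, and edgeR with RP and Ctrl alone called 505. With each library left out in turn, edgeR called 0 to 48 genes in RP against Ctrl and 0 to 3233 in the average, the highest without DOX replicate 2 and 0 to 37 without any other. Every member had at least 768 counts in each library.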
